A study of Mus musculus with 8 samples.

Results

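The UDP-glucuronosyltransferases (UGT), cytosolic sulfotransferases (SULT), glutathione S-transferases (GST) and microsomal glutathione S-transferases (MGST) were examined in primary hepatocytes of p16 wild type and p16 knockout mice. Members were the genes whose symbol begins with Ugt1, Ugt2 or Ugt3 and a letter, with Sult and a digit, with Gsta, Gstk, Gstm, Gsto, Gstp or Gstt and a digit, or with Mgst and a digit, and that have an array row annotated with that symbol alone. This gave 52 of the 22180 genes with a row, namely 10 UGT, 21 SULT, 18 GST and 3 MGST genes, each with 1 row. A further 13 genes of these families were named only in 8 rows that carry several symbols and were not analysed here. They were Ugt1a1, Ugt1a2, Ugt1a5, Ugt1a6a, Ugt1a6b, Ugt1a7c, Ugt1a9, Ugt1a10, Ugt2a1, Ugt2a2, Gsta1, Gsta2 and Gstm5, so the genes of the UGT1 locus, whose products share their later exons, have rows on the array but none of their own and are not part of the counts.

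These enzymes attach a polar group to bile acids, steroids, bilirubin, neurotransmitters, drugs and products of cytochrome P450, so that the products can leave the cell in bile or blood. UGTs transfer a sugar, mostly glucuronic acid from UDP-glucuronate, inside the endoplasmic reticulum. SULTs transfer sulfate from PAPS (3′-phosphoadenosine 5′-phosphosulfate) in the cytosol. GSTs couple reactive compounds to glutathione, and the MGSTs do so in membranes. Hepatocytes are their main site in the liver, and hepatocyte nuclear factors, the xenobiotic receptors CAR, PXR and AHR, and the oxidant-responsive factor NRF2 are known to regulate many of their genes.

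The hepatocytes came from p16+/+ and p16-/- littermates and were isolated with collagenase. They attached overnight in medium with fetal bovine serum (10%), dexamethasone (25 nM) and insulin (100 nM), spent the 8 h from 16 h after plating in medium with glucose at 1 mM and albumin at 0.1%, and gave RNA at 24 h. Both genotypes had this same treatment, and each had 4 samples with 1 array apiece. The labels give neither the age nor the sex of the mice, nor the cells in which p16 was lost, and they call the samples biological replicates without saying whether each came from its own animal, so the p-values rest on the spread among these samples, which may be technical. Uty, Kdm5d and Eif2s3y, which are Y-linked, lay between 5.10 and 8.06 on the log2 scale on all 8 arrays, and Xist between 2.59 and 3.03.

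Values are deposited log2 expression values, on which a difference of 1 is 2-fold. Genes with a mean over the 8 arrays above 3.32 were tested, which kept 15380 genes and 35 of the 52 members, and a change was called at an adjusted p under 0.05 (limma, Benjamini-Hochberg over all genes tested). All changes are knockout minus wild type, with limma's standard error (SE) and n = 4 against 4. The leading principal component held 47.5% of the variance and separated the genotypes, and the next, with 17.9%, set knockout replicate 4 apart at -25.2. Among the 16 members higher in the knockout, replicate 4 was the knockout array nearest the wild type in 5 (31.2%), against 58.4% of the 1080 genes called higher.

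The targeted gene was checked first. Cdkn2a read 4.16, 4.79, 4.48 and 4.68 on the wild type arrays and 4.28, 4.66, 4.27 and 4.91 on the knockout arrays. The groups overlapped, with a difference of 0.0040 (95% interval -0.37 to 0.38; exact permutation test, two-sided, p = 1.0, with 0.0286 the smallest p the 70 arrangements allow). Cdkn2a encodes p16 and the ARF protein from different first exons joined to shared later exons, and the labels do not say which part was deleted, nor the annotation which part the row measures. The row therefore does not check the labels, and every direction below is that of the arrays labelled knockout against those labelled wild type.

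More conjugating enzyme genes were higher in the knockout than lower. Of the 35 tested, 16 (45.7%) were called higher, against 7.02% of all genes tested, and 2 (5.71%) were called lower, against 6.76%. A further 17 did not pass. A called rise of at least 2-fold was found for 5 members (1.07% of all genes tested), while the 2 falls were smaller than that (0.709% of all genes tested fell by 2-fold or more). The 4 knockout arrays lay above the 4 wild type arrays in 17 members (9.13% of all genes tested) and below in 2 (11.1%); over all genes tested 20.2% were separated one way or the other. The median change was 0.30 over the tested members and -0.02 over all genes tested. Without knockout replicate 4 the counts were again 16 higher and 2 lower.

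By family, 6 of 8 tested UGT genes rose and 1 fell, with a median change of 0.89. Of 7 SULT genes, 3 rose and 4 did not pass, with a median of 0.22. Of 18 GST genes, 6 rose and 1 fell, with a median of 0.20. Of 2 tested MGST genes, 1 rose and 1 did not pass, with a median of 0.28. Differences between families were not tested.

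**Figure D1:**
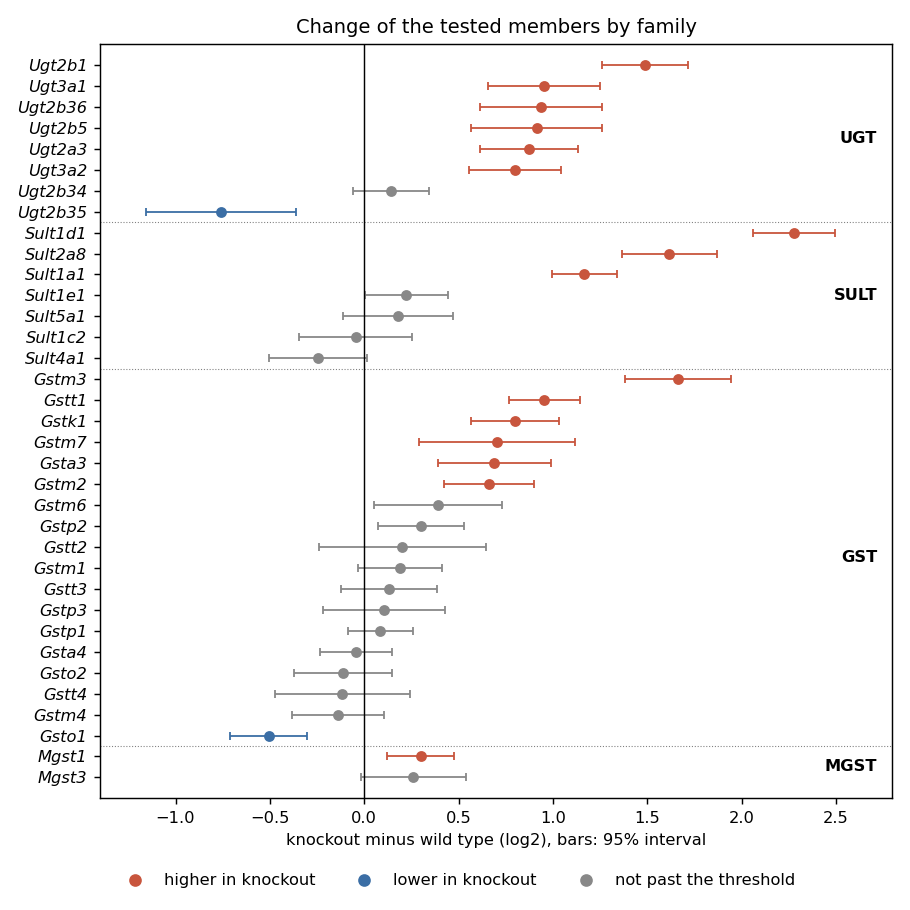
Log2 change of each of the 35 tested members, knockout minus wild type (horizontal axis), with the 95% interval of the limma fit as bars, ordered within the UGT, SULT, GST and MGST families. Red points are the 16 called higher, blue the 2 called lower and grey the 17 not past the threshold; Sult1d1 lies farthest right at 2.28 and Ugt2b35 farthest left at -0.76.

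The UGT2B enzymes glucuronidate steroids, bile acids and drugs. Ugt2b1 read 8.00, 7.86, 8.10 and 7.89 on the wild type arrays and 9.61, 9.52, 9.24 and 9.46 on the knockout arrays. It was the UGT gene with the widest separation, every knockout array lying more than 1 log2 unit above every wild type array, and it rose by 1.49 (SE 0.10, 2.81-fold, adjusted p = 6.2e-06). Ugt2b36 read 6.81, 6.11, 6.40 and 6.15 in the wild type and 7.36, 7.14, 7.30 and 7.42 in the knockout. The groups did not overlap, wild type replicate 1 being the nearest to the knockout, and the change was 0.94 (SE 0.15, adjusted p = 0.0015). Ugt2b5 rose by 0.91 (SE 0.16, adjusted p = 0.00289), also without overlap.

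Ugt2b35 went the other way. It read 7.07, 6.80, 6.96 and 6.38 in the wild type and 6.30, 6.07, 6.24 and 5.58 in the knockout. Replicate 4 was the lowest in both groups, and the highest knockout array lay just below the lowest wild type array. The fall was -0.76 (SE 0.18, 1.69-fold lower, adjusted p = 0.0172), and it missed the threshold without wild type replicate 1 (adjusted p = 0.0572) or wild type replicate 3 (0.0502). Ugt2b34 had overlapping groups, with a change of 0.14 (95% interval -0.06 to 0.34, adjusted p = 0.37). The genes of this subfamily are similar in sequence, so the probes of one row may pick up RNA of another gene, and the values of single Ugt2b genes are uncertain to that extent.

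Ugt2a3, which glucuronidates bile acids, read 6.70, 6.48, 6.70 and 6.34 in the wild type and 7.48, 7.61, 7.42 and 7.20 in the knockout. All knockout arrays were above all wild type arrays, with replicate 4 the lowest of each group, and the change was 0.87 (SE 0.12, adjusted p = 0.000609). The UGT3 enzymes use sugars other than glucuronic acid. Ugt3a1 read 6.04, 5.54, 5.78 and 5.90 in the wild type and 7.07, 6.77, 6.56 and 6.67 in the knockout, a change of 0.95 (SE 0.14, adjusted p = 0.000821). Ugt3a2 read 8.85, 8.44, 8.67 and 8.40 in the wild type and 9.44, 9.43, 9.31 and 9.38 in the knockout, a change of 0.80 (SE 0.11, adjusted p = 0.000733). Neither gene had overlapping groups, and the 2 lie beside each other on chromosome 15. Ugt2b37 and Ugt2b38 were below the level required for testing.

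**Figure D2:**
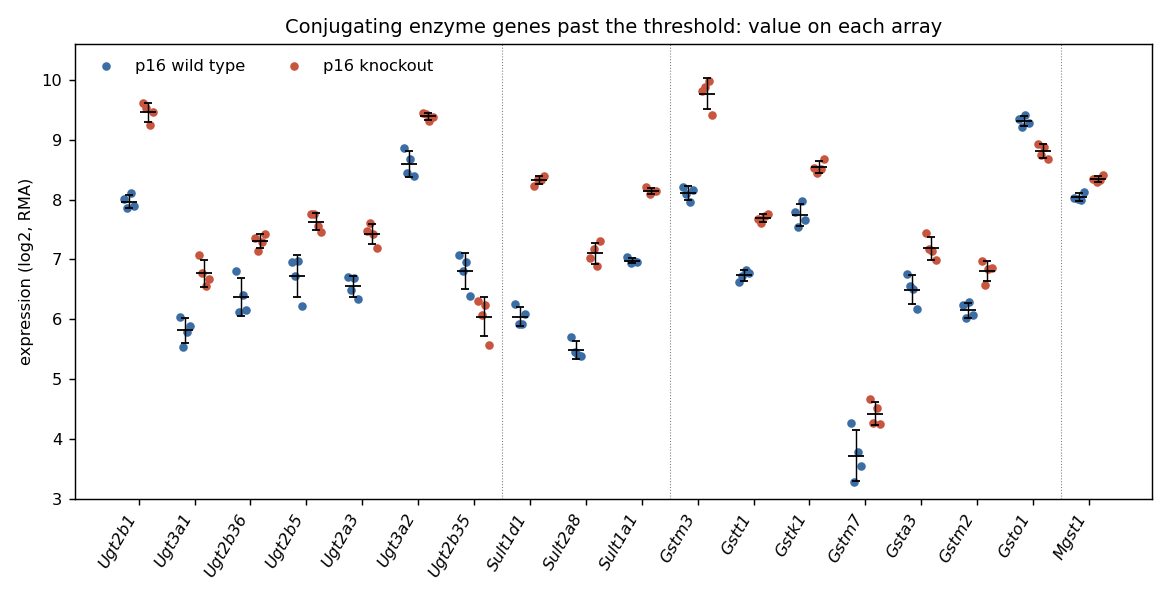
Deposited log2 expression (vertical axis) of the 18 called members on each of the 8 arrays, with wild type in blue and knockout in red; lines and bars are the group mean and SD of 4 arrays, and dotted lines separate the UGT, SULT, GST and MGST genes. The groups are apart in every gene shown other than Gstm7, where a wild type array and a knockout array share the value 4.27.

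Among the sulfotransferases, 3 genes changed by more than 2-fold and the other tested ones did not pass. Sult1d1, which in mice sulfates dopamine and other catecholamines, read 6.25, 5.92, 5.91 and 6.09 in the wild type and 8.23, 8.35, 8.33 and 8.39 in the knockout. The distance between the groups was many times the spread within either, and the rise of 2.28 (SE 0.10, 4.85-fold, adjusted p = 4.39e-07) was the largest among the tested members. Sult2a8, a liver sulfotransferase that acts on bile acids, read 5.70, 5.45, 5.40 and 5.39 in the wild type and 7.03, 7.18, 6.89 and 7.31 in the knockout, a rise of 1.62 (SE 0.11, 3.07-fold, adjusted p = 6.8e-06). Sult1a1, the main phenol sulfotransferase, read 7.04, 6.94, 6.97 and 6.96 in the wild type and 8.20, 8.10, 8.14 and 8.14 in the knockout. Its arrays were the most alike within each group of these 3 genes, and it rose by 1.17 (SE 0.08, 2.25-fold, adjusted p = 5.61e-06).

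Sult1e1, the estrogen sulfotransferase, read 3.62, 3.76, 3.33 and 3.53 in the wild type and 3.77, 3.80, 3.81 and 3.77 in the knockout. The groups did not overlap, but the change of 0.22 (95% interval 0.0025 to 0.45) did not pass after adjustment (adjusted p = 0.181). Sult4a1 changed by -0.25 (adjusted p = 0.216), Sult5a1 by 0.18 (adjusted p = 0.442) and Sult1c2 by -0.05 (adjusted p = 0.874), each with overlapping groups. Their 95% intervals together ran from -0.51 to 0.47. The other 14 SULT genes were below the level required for testing, namely Sult1b1, Sult1c1, Sult2a1, Sult2a2, Sult2a3, Sult2a4, Sult2a5, Sult2a6, Sult2a7, Sult2b1, Sult3a1, Sult3a2, Sult6b1 and Sult6b2. Sult2a1 and Sult3a1 are known as genes of the female mouse liver.

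The mu class GSTs conjugate epoxides and other electrophiles. Gstm3 read 8.21, 8.10, 7.95 and 8.16 in the wild type and 9.81, 9.88, 9.99 and 9.41 in the knockout. Knockout replicate 4 was the lowest of its group but still more than 1 log2 unit above the wild type arrays, and the gene rose by 1.66 (SE 0.13, 3.17-fold, adjusted p = 1.04e-05). Gstm2 read 6.23, 6.02, 6.28 and 6.07 in the wild type and 6.98, 6.58, 6.84 and 6.86 in the knockout, a change of 0.66 (SE 0.11, adjusted p = 0.00202). Gstm7 changed by 0.71 (SE 0.19, adjusted p = 0.0292), with overlapping groups. Its call was lost without wild type replicate 2 (adjusted p = 0.0748), 3 (0.057) or 4 (0.0739), without knockout replicate 1 (0.0829) or 3 (0.0663), and with no filter on dim genes (0.0514). Gstm6 changed by 0.39 (adjusted p = 0.129), Gstm1 by 0.19 (adjusted p = 0.271) and Gstm4 by -0.14 (adjusted p = 0.477). As with the Ugt2b genes, similar sequences within the mu class may share probe signal.

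Outside the mu class, 3 GST genes rose. Gstt1, a theta class enzyme that acts on small halogenated compounds, read 6.62, 6.73, 6.83 and 6.77 in the wild type and 7.68, 7.62, 7.73 and 7.75 in the knockout, a change of 0.96 (SE 0.09, adjusted p = 3.08e-05). Gstk1, the kappa class enzyme of mitochondria and peroxisomes, read 7.80, 7.55, 7.97 and 7.66 in the wild type and 8.54, 8.45, 8.52 and 8.67 in the knockout, a change of 0.80 (SE 0.11, adjusted p = 0.000553). Gsta3, the alpha class enzyme known for detoxifying aflatoxin epoxide in mice, read 6.75, 6.56, 6.50 and 6.17 in the wild type and 7.44, 7.17, 7.14 and 6.99 in the knockout. Its groups were separate, wild type replicate 4 being the lowest array and knockout replicate 1 the highest, and it rose by 0.69 (SE 0.14, adjusted p = 0.00632).

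Gsto1 was the GST gene that fell. It encodes the omega class enzyme that reduces dehydroascorbate and methylated arsenic and has little of the usual conjugating activity. It read 9.35, 9.22, 9.42 and 9.29 in the wild type and 8.94, 8.74, 8.89 and 8.69 in the knockout, with no overlap. The change was -0.51 (SE 0.09, 1.42-fold lower, adjusted p = 0.00395), and it was called in every fit tried, though not where a change of 1.5-fold was also required.

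The pi class did not pass. Gstp2 changed by 0.30 (95% interval 0.07 to 0.53, adjusted p = 0.0833), and it passed with quantile normalization on top of the deposited values (adjusted p = 0.0484), with cyclic loess (0.034) and with an intensity trend in the variance, plain (0.0173) or robust (0.0167). Gstp1, named here after its values were seen, lay between 12.06 and 12.15 on the wild type arrays and between 12.15 and 12.24 on the knockout arrays. Its groups did not overlap, yet the change was 0.08 (95% interval -0.09 to 0.26, adjusted p = 0.554). The 7 GST genes not past the threshold other than Gstm6, Gstp2, Gstm1 and Gstm4 were Gstp1, Gstp3, Gsta4, Gsto2, Gstt2, Gstt3 and Gstt4, with changes of -0.12 to 0.20 and adjusted p of 0.531 to 0.811.

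Mgst1, the abundant membrane-bound enzyme of the endoplasmic reticulum and outer mitochondrial membrane, read 8.03, 8.01, 8.00 and 8.13 in the wild type and 8.34, 8.29, 8.32 and 8.41 in the knockout. The groups were separate by a small distance, with a change of 0.30 (SE 0.08, adjusted p = 0.031). The call was lost without wild type replicate 1 (adjusted p = 0.079), 2 (0.0743) or 3 (0.0794), without knockout replicate 1 (0.0744), 2 (0.0609) or 3 (0.059), with median centring (0.0626) and with no filter on dim genes (0.0627). Mgst3 changed by 0.26 (95% interval -0.02 to 0.54, adjusted p = 0.218), and Mgst2 was below the level required for testing.

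Many of these genes sit in tandem clusters, and calls within a cluster were mixed. The counts by cluster are to be read against the 7.02% of all genes tested called higher and the 6.76% called lower. In the RefSeq order on chromosome 5 the 11 members from Ugt2b34 to Sult1e1 follow each other, and of the 8 tested there 5 rose, 1 fell and 2 did not pass. Ugt2b35, which fell, lies between Ugt2b1 and Ugt2b36, which rose. At the other end Sult1d1 changed by 2.28 and its neighbour Sult1e1 by 0.22. Of the 6 Gstm members in their cluster, 3 rose and 3 did not pass, with changes from -0.14 to 1.66. Gstm5 has no row of its own and is not among them. In the Gstt cluster of 4 genes Gstt1 rose by 0.96 and the other three ranged from -0.12 to 0.20. Of the 8 genes of the Sult2a cluster, Sult2a8 was the 1 above the level required for testing. Whether neighbours differed from each other was not tested.

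**Figure D3:**
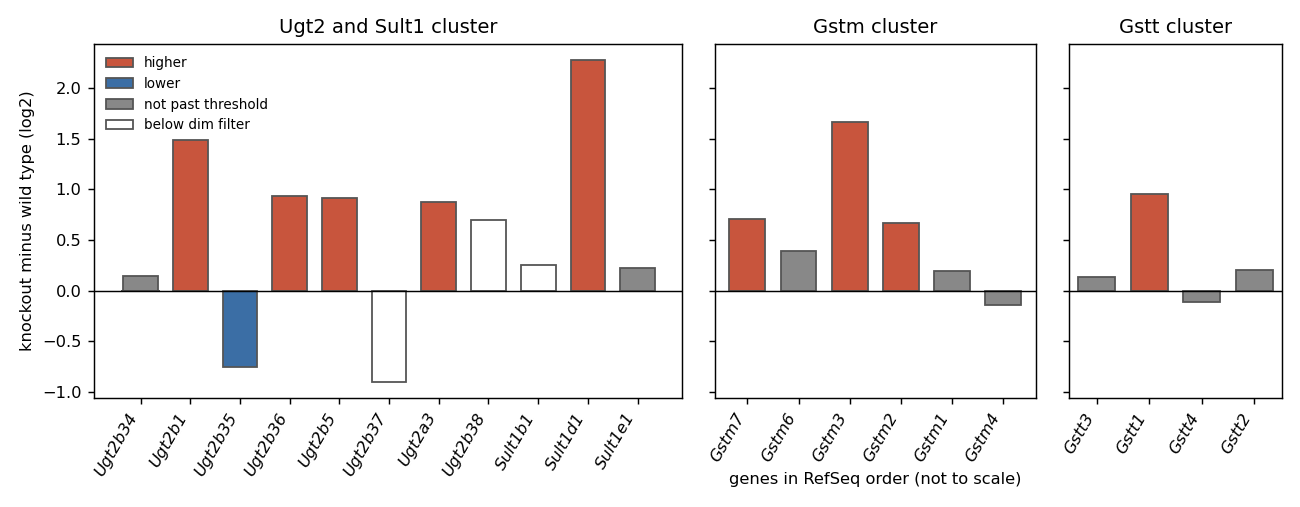
Log2 change of each member, knockout minus wild type (vertical axis), in RefSeq gene order along the Ugt2 and Sult1, Gstm and Gstt clusters, with distances not to scale. Red bars were called higher, blue lower, grey did not pass and open bars were below the level required for testing; the blue bar of Ugt2b35 at -0.76 stands between the red bars of Ugt2b1 at 1.49 and Ugt2b36 at 0.94.

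Promoter sequences are shown for members that rose and for 1 that fell. Also shown are 1 that did not pass and 2 below the level required for testing. The regulators named above can bind near gene starts, but sites outside the 250 bases searched were not looked at. RefSeq promoter windows (GRCm38.p6) matched 45 of the 52 members, and the 250 bases before each start were searched on both strands for 4 short motifs. The first set is the proximal stretch that 4 Ugt2b genes share, with the nuclear receptor half-site AGGTCA in capitals. All are on the minus strand, at chr5:87140341-87140402 for Ugt2b5, chr5:87092556-87092620 for Ugt2b36, chr5:87254789-87254867 for Ugt2b37 and chr5:87424204-87424268 for Ugt2b38, each ending at the base before the start.
Ugt2b5: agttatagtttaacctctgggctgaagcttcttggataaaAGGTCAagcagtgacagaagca
Ugt2b36: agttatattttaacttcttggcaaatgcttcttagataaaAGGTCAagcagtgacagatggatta
Ugt2b37: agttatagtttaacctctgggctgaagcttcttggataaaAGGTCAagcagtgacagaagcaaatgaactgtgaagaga
Ugt2b38: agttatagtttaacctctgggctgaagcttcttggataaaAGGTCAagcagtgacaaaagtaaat

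Over the first 46 bases as printed, Ugt2b5, Ugt2b37 and Ugt2b38 were identical at 46, and Ugt2b36 matched each of them at 39. Of the 4 genes, Ugt2b5 and Ugt2b36 rose, and the other two were below the level required for testing. AGGTCA was found in 4 of the 15 higher members with a window (26.7%), the other two being Gstk1 and Sult2a8, in Ugt2b35, which fell, in 9 of all 45 (20.0%) and in 15.8% of the 27025 genes in the promoter table. Ugt2b35 held it on the gene's strand (plus strand, chr5:87000610-87000690), and Sult1e1, which did not pass, held its reverse complement (minus strand, chr5:87591679-87591764); both are shown because they are the cluster members without a called rise that held it among those tested. Sult2a8 held it at 2 places, and the one nearer the start is shown (minus strand, chr7:14438596-14438681).
Ugt2b35: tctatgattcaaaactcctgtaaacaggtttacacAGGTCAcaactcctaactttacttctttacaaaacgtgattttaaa
Sult1e1: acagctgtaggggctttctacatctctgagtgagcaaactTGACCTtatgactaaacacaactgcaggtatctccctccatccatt
Sult2a8: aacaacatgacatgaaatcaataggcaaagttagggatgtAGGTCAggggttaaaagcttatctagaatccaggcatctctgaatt

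The HNF1 half-site GTTAAT was found in 5 of the 15 higher members (33.3%), namely Sult1d1, Sult1a1, Ugt2a3, Ugt3a1 and Gsta3. It was in 0 of the 14 windows of tested members not past the threshold, in 5 of 14 (35.7%) of those below the level required for testing, in 10 of all 45 (22.2%) and in 7.49% of all genes. Sult1d1, the member with the largest rise, and Ugt2a3 are shown with the motif in capitals, both on the minus strand, at chr5:87569040-87569125 and chr5:87337204-87337289. Ugt2a3 held a second copy close behind the one in capitals.
Sult1d1: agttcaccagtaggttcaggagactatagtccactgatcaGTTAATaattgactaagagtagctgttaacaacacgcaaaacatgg
Ugt2a3: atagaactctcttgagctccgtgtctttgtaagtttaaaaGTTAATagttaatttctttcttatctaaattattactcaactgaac

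The antioxidant response element core TGACNNNGC, where N is any base, was found in 3 of the 15 higher members (20.0%), Gsta3, Gstm7 and Mgst1, in 3 of all 45 (6.67%) and in 11.5% of all genes. Its TGAC can overlap the reverse complement of AGGTCA. The Gsta3 stretch is shown as the one match in a gene whose call held under every alternative (plus strand, chr1:21240424-21240512).
Gsta3: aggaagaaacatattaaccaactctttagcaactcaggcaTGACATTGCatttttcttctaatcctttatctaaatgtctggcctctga

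The AHR element core GCGTG was found in 1 of the 15 higher members (6.67%), Sult1d1, in 7 of all 45 (15.6%) and in 30.9% of all genes. A match is a description of letters in these windows, and motifs this short occur often.

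The supply of cosubstrates was looked at next, and the counts of this and the following lists are to be read against the 7.02% of all genes tested that were called higher and the 6.76% called lower. Of 6 genes for UDP-glucuronate supply and glucuronide handling, 2 rose (33.3%) and 4 did not pass. Ugp2, which makes UDP-glucose, read 10.03, 9.90, 10.20 and 10.16 in the wild type and 10.98, 10.92, 10.92 and 10.71 in the knockout (change 0.81, SE 0.10, adjusted p = 0.000344). Slc35d1, which carries UDP-glucuronate into the endoplasmic reticulum, changed by 0.58 (SE 0.11, adjusted p = 0.00488), while Ugdh, named because it makes UDP-glucuronate from UDP-glucose, changed by 0.11 (adjusted p = 0.51). Of 14 genes for PAPS supply and sulfate handling, 1 rose (7.14%, near the share over all genes) and 13 did not pass. Papss2, a PAPS synthase, read 7.22, 7.01, 7.10 and 7.17 in the wild type and 8.14, 8.53, 8.45 and 7.87 in the knockout (change 1.12, SE 0.14, adjusted p = 0.000341), and Papss1, named as the other synthase gene, changed by 0.04 (adjusted p = 0.867).

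Of 21 genes of glutathione synthesis and turnover, 4 rose (19.0%) and 1 fell (4.76%). Slc7a11, the importer of cystine, fell from 9.05, 8.86, 8.87 and 8.72 in the wild type to 7.51, 7.72, 7.86 and 7.29 in the knockout (change -1.28, SE 0.13, adjusted p = 7.34e-05). Gclc, the catalytic subunit of the rate-limiting ligase of glutathione synthesis, rose by 0.64 (adjusted p = 0.00214). Rises were also called for Chac1, which degrades glutathione (0.65, adjusted p = 0.000346), and for Oplah, which acts on the 5-oxoproline released from it (0.75, adjusted p = 0.00235). Of 10 GST-like and MAPEG genes outside the naming rule, 1 rose and 1 fell (10.0% each). Ptges, a prostaglandin E synthase, rose by 0.51 (adjusted p = 0.00417) and Eef1e1, a protein with a GST-like fold in the tRNA synthetase complex, fell by 0.37 (adjusted p = 0.0332).

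The list of other conjugating enzymes held methyl, acyl and amino acid transferases, and acyl-CoA synthetases that activate acids for conjugation. It also held Ugt8a and the epoxide hydrolases Ephx1 and Ephx2, which do not conjugate. This list gave 9 rises (56.2%) and 1 fall (6.25%) among 16 tested. The rises of smallest p were Inmt, an N-methyltransferase (1.79, SE 0.14, adjusted p = 1.16e-05), Acsm1, an acyl-CoA synthetase of the glycine conjugation route (1.23, SE 0.12, adjusted p = 6.75e-05), Slc27a5, which activates bile acids (0.87, SE 0.09, adjusted p = 8.79e-05), and Keg1 (1.00, SE 0.12, adjusted p = 0.000192). The fall was Glyat, a glycine N-acyltransferase (-0.67, SE 0.16, adjusted p = 0.0157), chosen for naming after its value was seen.

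The pumps that export conjugates moved in both directions, with 2 of 10 higher (20.0%) and 4 lower (40%). Abcc4, which exports conjugates into blood, read 7.18, 6.70, 6.77 and 6.57 in the wild type and 4.78, 4.77, 4.97 and 4.35 in the knockout (change -2.09, SE 0.16, adjusted p = 9.91e-06). Every knockout array lay more than 1 log2 unit below every wild type array. Abcb1b, a drug efflux pump, changed by -1.35 (SE 0.26, adjusted p = 0.00587), and Abcc2, the canalicular pump for glucuronide and glutathione conjugates, by -0.52 (SE 0.11, adjusted p = 0.00939). Abcc6 rose by 0.54 (SE 0.11, adjusted p = 0.00631).

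Of 25 regulators of conjugating enzyme genes, 5 rose (20.0%) and 1 fell (4.0%). Hnf4a, a nuclear receptor of the hepatocyte lineage, read 7.32, 6.92, 7.38 and 7.16 in the wild type and 8.28, 8.15, 8.04 and 8.03 in the knockout (change 0.93, SE 0.12, adjusted p = 0.000341). Nr1i2, which encodes PXR, read 5.57, 5.48, 5.39 and 5.04 in the wild type and 6.85, 6.75, 6.55 and 6.20 in the knockout (change 1.22, SE 0.16, adjusted p = 0.000422). Bach1, a repressor at antioxidant response elements, rose by 0.64 (adjusted p = 0.00035), and Stat5b, which carries the growth hormone signal, by 0.53 (adjusted p = 0.00646). The fall was Nfe2l2, which encodes NRF2, at -0.41 (SE 0.09, adjusted p = 0.00843); it was named after its value was seen.

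Known target genes of these receptors outside these families did not all move alike. Of 13 CAR and PXR targets, 9 rose (69.2%) and 4 did not pass, with a median change of 0.57 against -0.02 over all genes tested. Among them were the carboxylesterase Ces2a (1.16, SE 0.10, adjusted p = 3.18e-05) and the cytochromes P450 Cyp3a11 (1.06), Cyp2c29 (0.86) and Cyp3a25 (1.26). Mature hepatocyte markers, described below, had a similar share higher, with 18 of 27 tested (66.7%) and a median of 0.51. Of 18 NRF2 targets, 3 rose (16.7%) and 6 fell (33.3%), with a median of -0.15; Hmox1, heme oxygenase, rose by 1.02 (adjusted p = 0.000978), and Cbr3 (-0.79, adjusted p = 0.00135), Txnrd1 (-0.53, adjusted p = 0.00208) and Slc7a11 fell. Of 4 AHR targets, Cyp1a2 (1.56, SE 0.11, adjusted p = 5.82e-06) and Tiparp (0.63, adjusted p = 0.0241) rose and Nqo1 fell by 0.71 (adjusted p = 0.00218). Nqo1 is in the NRF2 list too, and several other lists share genes.

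Because several of these enzymes differ between the sexes in mouse liver, genes with a known sex bias were counted as well. Of 20 male-biased genes, 10 rose (50%) and 1 fell (5.0%), the rises of smallest p being Selenbp2 (1.59, adjusted p = 3.61e-06), Cyp2f2 (1.74, adjusted p = 5.01e-06), Slco1a1 (1.52, adjusted p = 5.93e-06) and Elovl3 (1.95, adjusted p = 1.04e-05). Of 18 female-biased genes with a row, 9 were below the level required for testing, against 0 of the 20 male-biased genes. Of all 22180 genes with a row, 15380 were above that level. Among the 9 female-biased genes tested, 1 rose and 1 fell (11.1% each). Cyp17a1 rose by 2.29 (adjusted p = 1.63e-05) and Cyp4a14 fell by 0.91 (adjusted p = 2.8e-05). The 50% of male-biased genes called higher is to be read beside the 66.7% of mature hepatocyte markers described below.

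**Figure D4:**
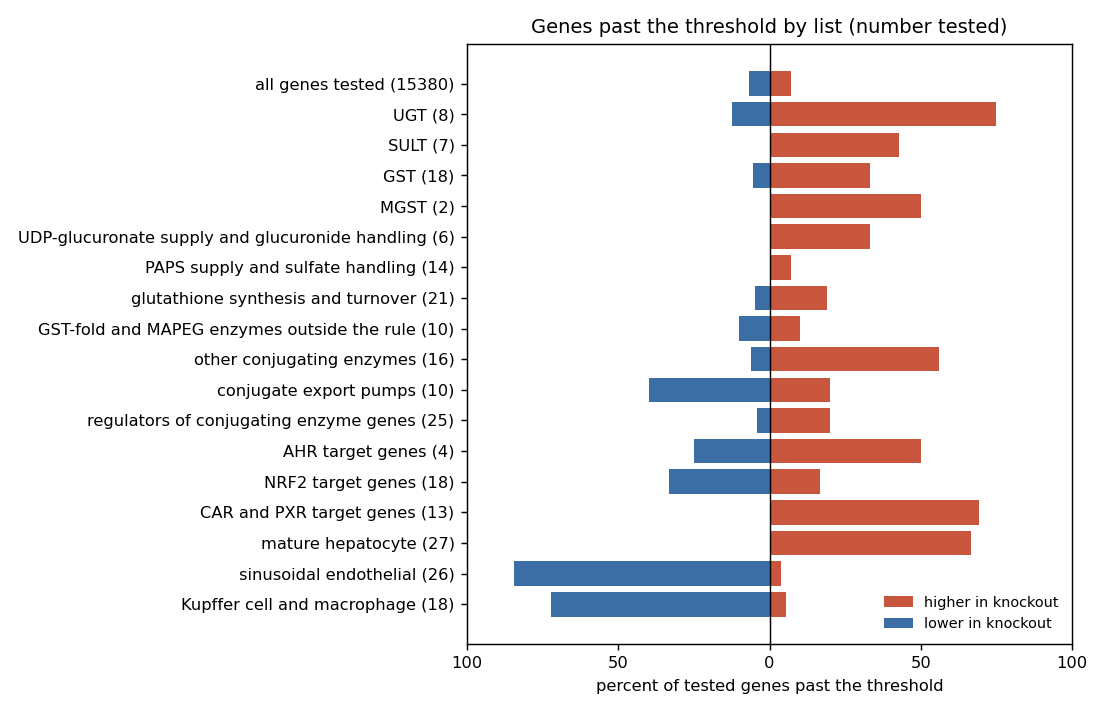
Percent of the tested genes of each list called higher (red, to the right) or lower (blue, to the left) in the knockout, with the number tested in parentheses and all 15380 genes tested in the top bar. The UGT bar reaches 75.0% higher against 7.02% over all genes. The sinusoidal endothelial (84.6%) and Kupffer cell and macrophage (72.2%) markers reach farthest to the lower side. The export pumps and NRF2 targets also have more of their genes on the lower side than on the higher.

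Markers of the cell types in a liver preparation moved with the genotype. Of 27 tested mature hepatocyte markers, 18 rose (66.7%, against 7.02% of all genes tested) and 9 did not pass, and the mean over the list was 8.96 to 9.14 on the wild type arrays and 9.70 to 9.83 on the knockout arrays. Examples are Fabp1 (1.97, adjusted p = 7.77e-07) and Arg1 (2.69, adjusted p = 5.01e-06). The median change of these markers was 0.51, against 0.30 for the conjugating enzyme genes. Of 26 sinusoidal endothelial markers, 1 rose and 22 fell (84.6%, against 6.76% of all genes tested), and the list mean was 5.47 to 5.59 on the wild type arrays and 4.52 to 4.69 on the knockout arrays, with Cdh5 at -2.03 (adjusted p = 4.39e-07) and Eng at -1.56 (adjusted p = 5.01e-06). Of 18 Kupffer cell and macrophage markers, 1 rose and 13 fell (list mean 5.26 to 5.43 against 4.57 to 4.61), and of 20 stellate cell and fibroblast markers, 1 rose and 7 fell (4.87 to 4.99 against 4.35 to 4.51). Of 7 cholangiocyte markers, 1 fell and 6 did not pass (4.98 to 5.11 against 4.79 to 5.05). Of 6 lymphocyte markers, 0 were called by limma and 0 had an unadjusted p under 0.05 (3.76 to 3.89 against 3.62 to 4.01). In RNA of whole cultures, fewer cells of a type and less RNA per cell cannot be told apart. The part of these marker differences in the changes of the conjugating enzyme genes was not tested.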

How the data were processed

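RNA of 8 hepatocyte cultures was measured on expression arrays, 1 per sample. The deposited table holds log2 values with 41345 rows; the authors used RMA through oligo, per the submitters' processing notes. Versions and genome build: not given in the sources used here. Because RMA equalises the distributions of the arrays, a change common to all genes cannot be seen, and changes of dim genes are compressed. Array medians lay between 3.76 and 3.88; arrays have no read depth, and 4 per group limit the precision.

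Rows were named from the platform annotation (23521 with 1 symbol, 1814 with several, 16010 with none), and a gene with several rows kept the one with the highest mean. Genes above the 40th percentile of row means were fitted by limma's lmFit and eBayes, without trend and two-sided (limma 3.58.1, R 4.3.3), after a check on simulated data; counts and promoter searches used Python 3.11.15. Cdkn2a was also tested by exact permutation. Counts of a list are given with the share over all genes and no test over the list.

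Members and lists were chosen with earlier results of these data known. All called members are named, up to 5 rises and 5 falls per family with array values; up to 4 of smallest p that did not pass are named per family, up to 4 of smallest p per pathway list and 2 per marker list. Alternatives were other filters, row rules, normalizations, variance models, array weights, thresholds, the replicate number as a block and leaving out each array. Protein identity between members was not analysed here.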

Additional observations from a re-analysis of the deposited data

How the results depend on the processing

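Of the 18 called members, 14 kept their call under every alternative tried and 15 in every fit other than the 2 stricter thresholds; 0 changed direction, while Gstm7, Mgst1, Ugt2b35 and Gsto1 lost the call under at least 1. The members called higher numbered 14 to 17 over all alternatives and 14 to 16 when single arrays were left out. The members called lower numbered 1 with an adjusted p under 0.01, 1 where a 1.5-fold change was also required, and 1 to 2 when single arrays were left out. The UGT genes called lower numbered 0 with an adjusted p under 0.01 and 0 to 1 when single arrays were left out, and the GST genes called lower numbered 0 where a 1.5-fold change was required. The MGST genes called higher numbered 0 with no filter on dim genes, with median centring and with either stricter threshold, and 0 to 1 when single arrays were left out. Not called in any setting, Gstt4 changed sign without wild type replicate 4, with a range of -0.23 to 0.024 when single arrays were left out, as did Sult1c2 without wild type replicate 2 (0.063) or knockout replicate 3 (0.031), with a range of -0.13 to 0.063. The calls among all genes ran from 1448 to 2623 over the fits at an adjusted p under 0.05. This range does not cover the 2 stricter thresholds. The stricter filter on dim genes gave no value for 9 members. The cause of these differences was not tested.

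Same-numbered arrays deviated from their group means with correlations of 0.061, 0.020, 0.263 and 0.207, and 4 of 8 arrays matched best with their own number. These values do not settle whether the numbers mark pairs, and the main fit did not take them as pairs. With the replicate number as a block, 17 members were higher and 2 lower, and Gstm6 passed (adjusted p = 0.0233). The 4 arrays per group limit the precision for dim genes, and signal that similar genes share cannot be separated.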

Other observations

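Among the 17 members below the level required for testing, array values ran from 1.04 to 4.27. When all 22180 genes were fitted, Ugt2b38 was the 1 of them past the threshold. It read 1.75, 2.29, 2.30 and 2.37 on the wild type arrays and 2.97, 3.04, 2.82 and 2.65 on the knockout arrays, without overlap (change 0.69, SE 0.15, adjusted p = 0.0172). Ugt2b37, which among the members lies between Ugt2b5 and Ugt2a3, read 3.88, 4.27, 3.55 and 3.11 in the wild type and 3.25, 2.09, 3.11 and 2.76 in the knockout (change -0.90, SE 0.28, adjusted p = 0.0838), with overlap. These 2 genes and Ugt2b5 were identical over the 46 bases compared before their starts. All 3 were singled out after their values were seen, and levels this low are compressed by RMA.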
